A study of Mus musculus with 2 samples.

Results

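Mir126a, Mir126b, Mir139, Mir221 and Mir222 are 5 of the 2202 miRNA genes counted in mouse heart, chosen by name as miRNA genes known from endothelial cells and from the growth of blood vessels. Short RNAs in total RNA of heart tissue were sequenced. The donors, for which no treatment is labelled, were males of B6CASTF1/J, an F1 cross between B6 and CAST mice, 36 days old by the age field, although another field counts the age in months. Both libraries belong to 1 group of 2 and are labelled as biological replicates 1 and 2, from differently numbered males that share 1 donor record. The p-values below therefore set 2 libraries against each other on counting error and say nothing of a condition.

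A miRNA is cut from a hairpin as a short mature strand, and bases 2 to 8 of that strand, the seed, pair with the messenger RNAs it represses. miR-126 is made from a hairpin inside Egfl7, a gene for a secreted factor of endothelial cells, and is known to strengthen the response of these cells to VEGF by repressing the signalling inhibitors Spred1 and Pik3r2. miR-139 comes from within Pde2a, which encodes a cGMP-stimulated phosphodiesterase, and is known from tumour cells as a brake on migration. miR-221 and miR-222 are made from neighbouring hairpins on the X chromosome and repress the receptor Kit and the cell-cycle inhibitor Cdkn1b, in endothelial cells as a brake on vessel growth and in smooth muscle as a drive to division.

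The mature strands that RefSeq lists for the 5 genes are shown. Their seeds group them, and their sequences decide which reads can be told apart. For Mir126a and Mir222 only the 3p strand is listed, so a 5p strand of these hairpins is not covered. The strands come from RefSeq (GRCm38.p6), where all 5 genes were matched, and run 5′ to 3′ with the seed in capitals.
miR-126a-3p: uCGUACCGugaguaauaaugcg
miR-126b-5p: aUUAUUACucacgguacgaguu
miR-126b-3p: cGCGUACCaaaaguaauaaugug
miR-139-5p: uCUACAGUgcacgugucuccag
miR-139-3p: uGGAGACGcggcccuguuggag
miR-221-3p: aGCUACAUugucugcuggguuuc
miR-221-5p: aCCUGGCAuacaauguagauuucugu
miR-222-3p: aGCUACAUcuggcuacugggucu

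These 8 strands hold 7 different seeds, and miR-221-3p and miR-222-3p are the pair that share one. Their first 8 bases are equal, and 11 of 23 positions are equal in all when the strands are laid side by side without gaps. Among the 1738 mature strands of the RefSeq table, the seed of this pair occurred in 1 more gene, Mir1928, which had 0 reads in both libraries. No other mature strand in that table had the seed of any listed strand of Mir126a, Mir126b or Mir139.

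The hairpins of Mir126a and Mir126b are shown because they are opposite strands of 1 stretch of DNA. Capitals mark miR-126a-3p in the first and miR-126b-5p in the second.
Mir126a: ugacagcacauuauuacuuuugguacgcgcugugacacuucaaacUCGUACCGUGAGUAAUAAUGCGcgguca
Mir126b: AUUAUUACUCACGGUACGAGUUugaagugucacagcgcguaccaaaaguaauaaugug

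The whole Mir126b hairpin, 58 bases long, is the exact reverse complement of bases 7 to 64 of the Mir126a hairpin. miR-126b-5p lies opposite miR-126a-3p over 19 bases. Outside this pair, the longest stretch that any of the 5 hairpins shares with another annotated miRNA hairpin, on either strand, is 13 bases, which is shorter than each mature strand. This bears on the counts, since reads that mapped to several places, 41.5% of the total in library 1 and 42.9% in library 2, were given to no gene.

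In GENCODE M21 on mm10, Mir126a (ENSMUSG00000065540.1) lies on chromosome 2 from 26591357 to 26591429 on the plus strand, and Mir126b (ENSMUSG00000105799.1) from 26591363 to 26591420 on the minus strand. All 7 protein-coding transcripts of Egfl7 that span Mir126a place it in an intron, which is intron 7 of the 3 coding forms with 10 exons and 600 bases long there, and 1 retained-intron transcript of Egfl7 includes it in an exon. Mir139 (ENSMUSG00000065446.1, chromosome 7, 101475376 to 101475443, plus strand) lies in intron 2 of all 4 protein-coding Pde2a transcripts that span it, 23907 bases past the upstream exon of an intron of 29902 bases. The gene models Gm20532 and Gm45837 also span Mir126a and Mir139 on the same strand, each with the hairpin in an intron. Mir221 (ENSMUSG00000065422.1, X chromosome, 19146294 to 19146388) and Mir222 (ENSMUSG00000065471.1, 19146893 to 19146971) lie on the minus strand with 504 bases between them and overlap no other annotated gene. The nearest, Gm14636, is 10010 bases from Mir222. Messenger RNA was not measured here, so the host genes have no values.

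Reads on the sense strand of a miRNA gene numbered 1999362 in library 1 and 1862526 in library 2. Levels are counts per 1000000 of these reads (CPM). Of the cell type markers checked, the 7 heart muscle genes summed to 8556 CPM in library 1 and 6697 in library 2, none of them at 0. Nearly all of this sum was Mir208a (7004 and 3393 CPM) and Mir499 (1336 and 3141 CPM), while Mir208b stood at 150.5 and 103.1 CPM and Mir1a-2 at 57.5 and 54.8. Mir1a-1, Mir133a-1 and Mir133a-2, which are further loci of the heart muscle miRNAs miR-1 and miR-133, had 2 to 6 reads per library. The smooth muscle pair Mir143 and Mir145a summed to 39517 and 38697 CPM, 4 leukocyte genes to 5357 and 4950, and 3 red cell genes to 2452 and 1970. The 3 loci of the neuronal Mir124a were at 0. Reads that mapped to several places were given to no gene. Counts at or near 0 for miRNAs with several loci, as for Mir124a, miR-1 and miR-133, therefore cannot be read as absence. The liver miRNA Mir122 stood at 118.5 CPM in library 1 and 13.4 in library 2, and the skeletal muscle miRNA Mir206 at 97.0 and 4.83.

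By sense reads, Mir126a and Mir139 were among the 10 most abundant miRNA genes in both libraries. Mir221 was far lower, Mir222 lower again, and Mir126b was at or near 0. Reads that mapped to several places are not counted, so ranks and shares here are not those among all miRNAs of the heart. Together the 5 genes took 9.75% (exact 95% interval 9.71 to 9.80) of the sense gene reads in library 1, against 10.9% (10.8 to 10.9) in library 2. Their share averaged 10.3% ± 0.786 (SD, n = 2). Mir126a and Mir139 together made up 97.7% of the reads of the 5 genes in library 1 and 98.3% in library 2. The order Mir126a, Mir139, Mir221, Mir222, Mir126b held in both libraries. Short RNAs were sequenced, so levels were not scaled by hairpin length. Which part of a hairpin the reads cover was not examined. How well each sequence is ligated and amplified was not measured and cannot be told apart from its level. The table sums both arms of a hairpin. In bulk tissue, fewer cells of a type and less RNA per cell cannot be told apart either.

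**Figure D1:**
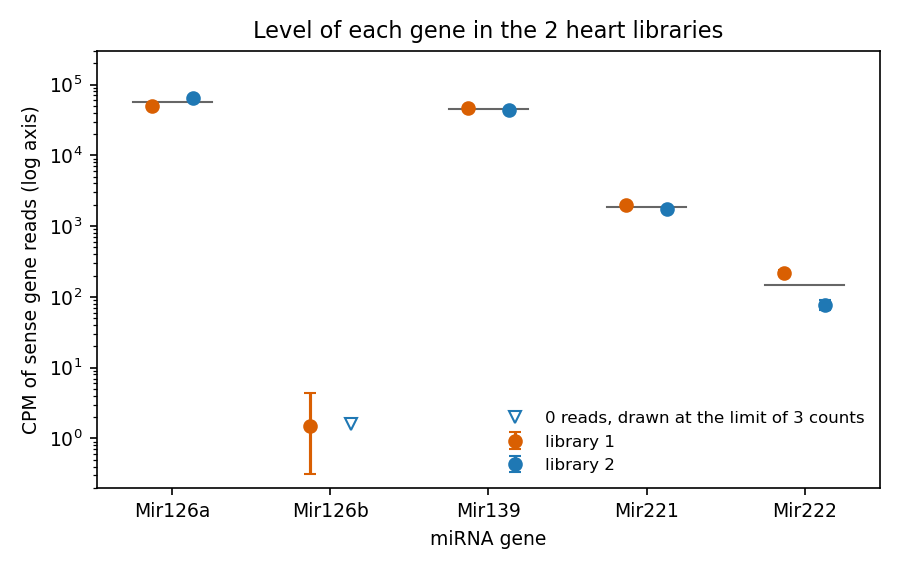
CPM of sense gene reads (log axis) for each miRNA gene. Points are library 1 (left) and library 2 (right) with exact 95% counting intervals, grey lines are means of both libraries, and the open triangle marks a count of 0, drawn at the limit of 3 counts. Mir126a and Mir139 lie at 42992 CPM or higher in both libraries, and the points of Mir222 stand farthest apart among the 4 genes with reads in both.

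Mir126a had 97816 reads in library 1 and 118865 in library 2. This gave 48924 CPM (exact 95% interval 48625 to 49224) in library 1, against 63819 (63469 to 64171) in library 2, with a mean of 56371 ± 10533 (SD, n = 2). It ranked 8 in library 1 and 4 in library 2. Its neighbours in order of the mean were Mir23b (57868 CPM in library 1 and 58035 in library 2) and Mirlet7b (50899 and 52342). Mir126a was lower than both of them in library 1 and higher than both in library 2, so its place among them was within the spread of the libraries.

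Mir139 had 92772 and 80073 reads, which gave 46401 CPM in library 1 (46110 to 46693) and 42992 in library 2 (42701 to 43284). Its mean was 44696 ± 2411 CPM and its rank was 9 in both libraries. Its SD between the libraries was 5.39% of the mean on this scale, the lowest of the 5 genes, although with TMM or DESeq2 scaling the libraries differed less in Mir221 than in Mir139. Mirlet7d (52710 and 47434 CPM) was higher than Mir139 in both libraries, while Mir22 (24473 and 60488 CPM) was lower in library 1 and higher in library 2.

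Mir221 had 3993 and 3287 reads, or 1997 CPM in library 1 (1936 to 2060) and 1765 in library 2 (1705 to 1826), a mean of 1881 ± 164 CPM at rank 44 in library 1 and 48 in library 2. Its neighbours Mir98 (2105 and 1674 CPM) and Mir214 (2471 and 1190 CPM) changed sides of it between the libraries. Mir222 had 436 and 144 reads, or 218.1 CPM in library 1 (198.1 to 239.5) and 77.3 in library 2 (65.2 to 91.0). The interval of library 1 lies wholly above that of library 2. Its mean was 147.7 ± 99.5 CPM, with rank 110 in library 1 and 155 in library 2. The neighbours of Mir222 in the mean, Mir337 (193.1 and 104.7 CPM) and Mir501 (169.6 and 123.5 CPM), were both lower than Mir222 in library 1 and higher in library 2.

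**Figure D2:**
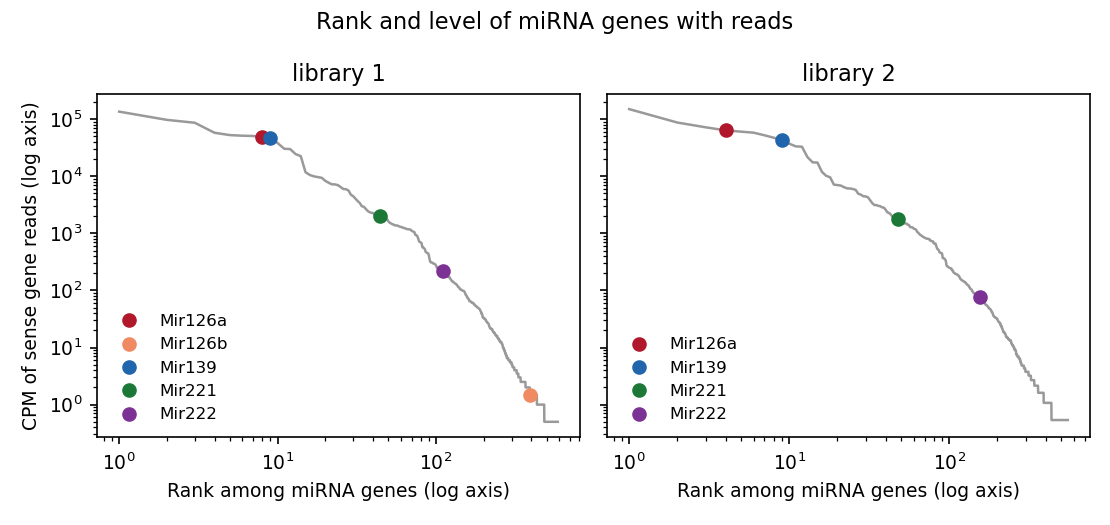
CPM of sense gene reads (log axis) against rank (log axis) for every miRNA gene with reads in library 1 (left) and library 2 (right), with the named genes as coloured points on the grey curve. Mir126a and Mir139 sit on the plateau of the most abundant genes at ranks 8 and 9 in library 1 and 4 and 9 in library 2, and Mir126b had reads in library 1 alone.

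Mir126b, the antisense entry of the locus, had 3 reads in library 1, or 1.5 CPM (0.309 to 4.39), and 0 in library 2, where a count of 0 allows up to 1.61 CPM (3 counts). The libraries were not distinguishable in Mir126b at this depth. Of the reads assigned to either strand of the locus, Mir126b held 0.00307% (exact 95% interval 0.000632 to 0.00896) in library 1 and 0% in library 2 (up to 0.00252% by the limit of 3 counts). Its share did not differ detectably between the libraries (Fisher's exact test, two-sided, p = 0.092). These intervals and limits cover counting error only, and no molecular identifiers are labelled.

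Few or no reads on the lower strand were also counted at most other loci of this kind with 1000 or more reads. The lower gene of a pair is by definition the one with fewer reads. In M21, 64 miRNA genes form 32 pairs that overlap on opposite strands, and Mir126a with Mir126b is the pair with the second most reads. In 9 pairs the higher gene had 1000 or more reads over both libraries. The lower gene held 0.00138% of the reads of the Mir126 pair, against a median of 0% in the other 8 pairs, 7 of which had no read on the lower strand. The highest share among these was 3.05%, for Mir3107 opposite Mir486. In pairs with fewer reads the share was 0% for Gm24111 opposite Mirlet7f-1 and 13.0% for Mir3074-1 opposite Mir24-1.

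The strand decided whether Mir126a was seen at all. In the deposited column that counts both strands together, Mir126a had 12 reads in library 1 and 18 in library 2, against 97816 and 118865 in the sense column. The difference, 97804 and 118847 reads, equals the antisense count of Mir126b in each library to the read. It made up 22.6% of the 432966 reads listed as ambiguous in library 1 and 26.4% of the 450849 in library 2. Mir139, Mir221 and Mir222, which have no miRNA gene opposite, had the same number of reads in both columns and 0 in the antisense column. Over the 2138 genes without such a partner, the antisense column held 78 reads in library 1 and 50 in library 2, against 1566384 and 1411659 in the sense column. A few reads on the opposite strand were thus counted at other genes too. The 3 reads of Mir126b in library 1 cannot be told apart from such reads.

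**Figure D3:**
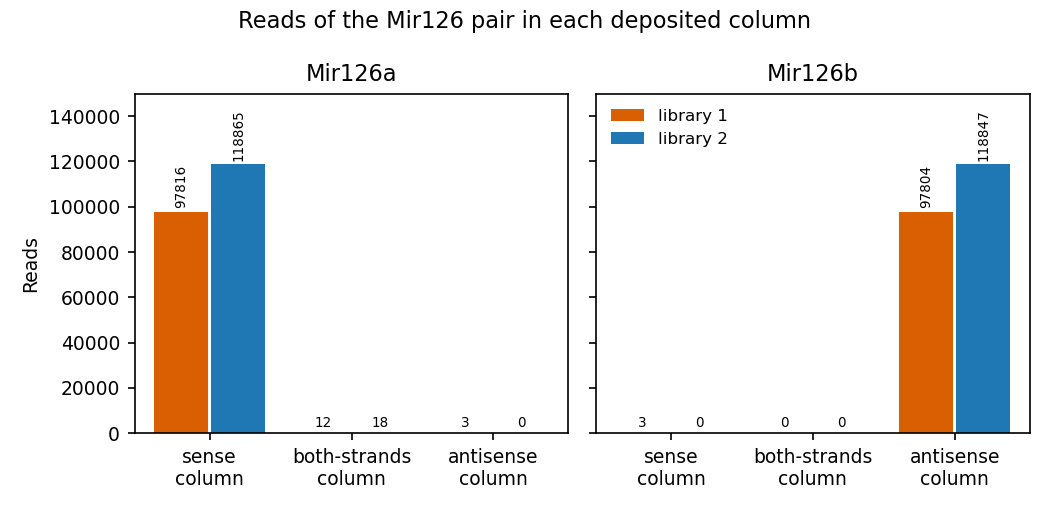
Reads for Mir126a (left panel) and Mir126b (right panel) in the sense, both-strands and antisense columns, with library 1 left of library 2 and the read count printed at each bar. The sense bars of Mir126a reappear as the antisense bars of Mir126b, and the both-strands bars hold 12 and 18 reads for Mir126a and 0 for Mir126b.

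Between the libraries, Mir222 was 2.82-fold higher in library 1, and the other 3 tested genes differed by at most 1.30-fold. Of the 5 genes, 4 had the 10 or more summed counts needed for the exact two-sided conditional binomial test, which was run on 344 genes with Benjamini-Hochberg adjustment over all of them. A gene was called at an adjusted p under 0.05 and a ratio of 2-fold or more. Mir222 was called and was higher in library 1, so 1 of the 4 was called. The background was 17.2% of tested genes called, 11.6% higher in library 1 and 5.52% higher in library 2. At these rates 1 call in 4 is near the background and is no result about the group. By adjusted p alone all 4 passed, where 54.1% of tested genes did so. After scaling with trimmed means of M-values (TMM), 27 genes were called higher in library 1 and 28 higher in library 2, against 40 and 19 with the plain total.

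The log2 ratio of library 1 over library 2 was 1.49 for Mir222 (exact 95% interval 1.22 to 1.78, adjusted p = 4.45e-30 in the exact test). Of the 141 genes with a mean of 100 CPM or more, 6 differed more than Mir222 in either direction. The other genes' ratios were 0.18 for Mir221 (0.11 to 0.25, adjusted p = 5.52e-07) and 0.11 for Mir139 (0.10 to 0.12, adjusted p = 1.80e-55). Mir126a was at -0.38 (-0.40 to -0.37), which is 1.30-fold higher in library 2, with an adjusted p that was returned as 0. The size of the log2 ratio was larger than that of Mir126a in 64 of the 141 well-covered genes and larger than that of Mir139 in 114. Over the 344 tested genes the median log2 ratio was 0.19. TMM scaling, which subtracted 0.19 from every log2 ratio, turned Mir139 to -0.08 and Mir221 to -0.01 (adjusted p = 0.83) and left Mir222 at 1.30. The direction of Mir139 and Mir221 therefore depends on the scaling.

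**Figure D4:**
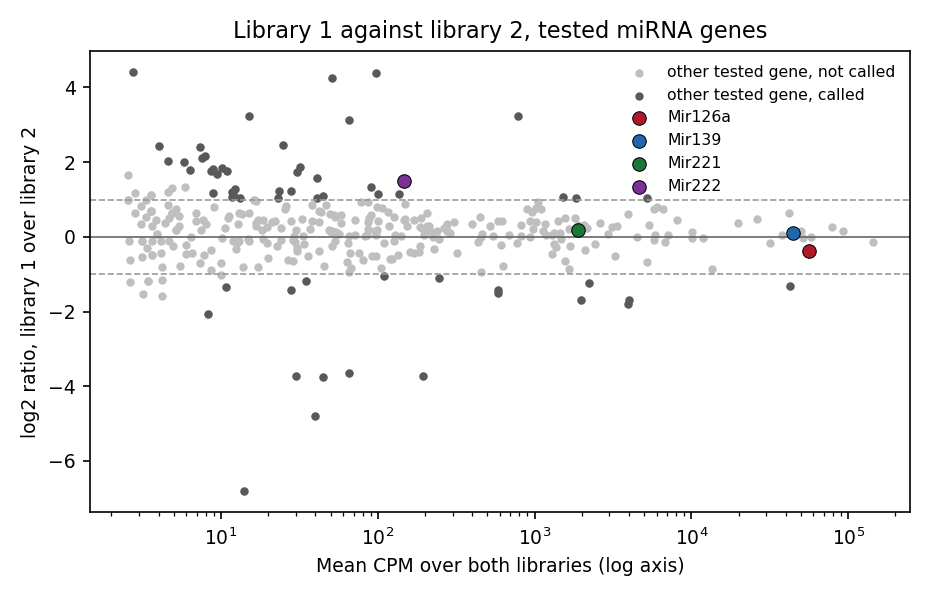
The log2 ratio of library 1 over library 2 against mean CPM (log axis) for the 344 tested miRNA genes. Dashed lines mark 2-fold, dark points are called genes, and coloured points are Mir126a, Mir139, Mir221 and Mir222. Mir222 lies above the upper line at 1.49, and the other 3 lie between the lines.

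The liver and skeletal muscle markers were higher in library 1, as Mir222 was. Mir122 had 237 reads in library 1 and 25 in library 2 (log2 ratio 3.12), and Mir206 had 194 and 9 (4.25). Their part in the Mir222 difference was not tested. Large differences also ran the other way. Mir302b was at -3.75 and Mir200b at -3.64, both higher in library 2 and named after their values were seen. Among the heart's own markers, Mir208a was higher in library 1 (1.05) and Mir499 higher in library 2 (-1.23), Mir208b was at 0.55 and Mir1a-2 at 0.07, while Mir143 was at 0.04 and Mir145a at -0.19.

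Genes with the library ratio nearest to each member were looked up among genes at 100 CPM or more. With 2 libraries the likeness is 1 difference of log2 ratios and carries little information. Mir126a was nearest to the hypoxia-responsive Mir210 (-0.40) and to Mir146 (-0.35), a regulator of inflammatory signalling. Mir139 was nearest to Mir10a (0.11) and Mir125a (0.13), and Mir221 to the myeloid Mir223 (0.17) and to Mir671 (0.19). For Mir222 no gene came close, the nearest being Mir487b (1.16) and Mir130b (1.14), at distances of 0.34 and 0.35.

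Mir221 and Mir222 share a seed and lie 504 bases apart, and their ratio within a library needs no scaling. Mir221 had 9.16 reads for each read of Mir222 in library 1, with an exact 95% interval of 8.29 to 10.1, and 22.8 in library 2 (19.3 to 27.2), and the intervals do not overlap. The ratio of Mir222 to Mir221 was thus 2.49 times as high in library 1 as in library 2 (95% interval 2.05 to 3.05, Fisher's exact test, two-sided, p = 2.27e-22, or 3.41e-22 with Benjamini-Hochberg adjustment over the 3 ratios computed). As a log2 value, the ratio of Mir222 to Mir221 was -3.20 in library 1 and -4.51 in library 2, a mean of -3.85 ± 0.93 (SD, n = 2). Mir221 held most reads of the pair in each library. Mir222 held 9.84% of them in library 1 (8.98 to 10.8) and 4.20% in library 2 (3.55 to 4.92). Both arms of a hairpin are summed, and miR-221-5p has another seed, so reads with the shared seed were not counted apart.

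A change of this size between partners was also seen at other loci. Of 81 other pairs of neighbouring miRNA genes on 1 strand, at most 2000 bases apart and each with 10 or more reads, 13 differed more in log2 library ratio than Mir221 and Mir222, whose difference was 1.31. The median of the other pairs was 0.48. Several of these pairs had few reads. With 100 or more reads per gene, which Mir221 and Mir222 had, 5 of 44 other pairs differed more, and the median was 0.375. The pairs that differed more included Mir23a with Mir27a (1.51) and Mir16-1 with Mir15a (1.70), which were named after their values were seen.

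**Figure D5:**
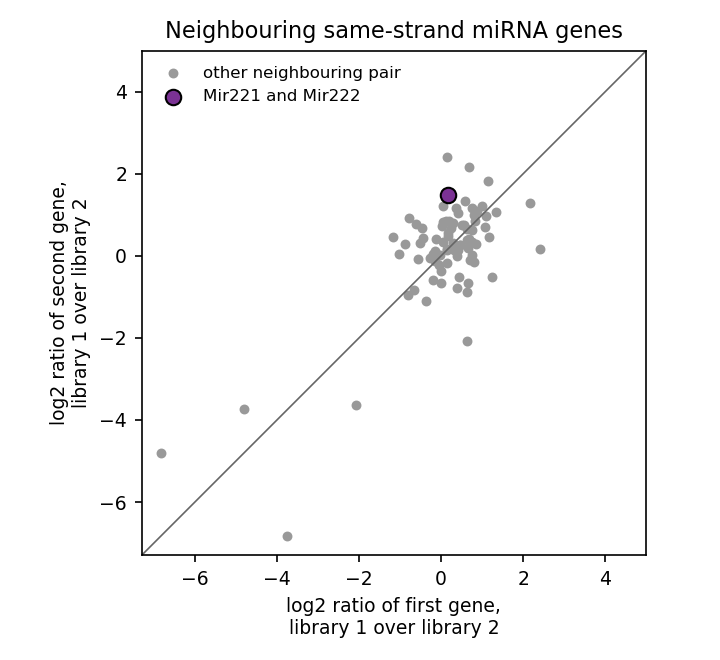
The log2 ratio of library 1 over library 2 of the second gene against that of the first for 82 pairs of neighbouring miRNA genes, with equal ratios on the line. Mir221 and Mir222, the purple point at 0.18 and 1.49, lie 1.31 off the line, and 13 of 81 other pairs lie farther off.

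Mir126a and Mir139 come from different hosts, and their ratio was closer to 1. Mir126a had 1.05 reads for each read of Mir139 in library 1 (1.05 to 1.06) and 1.48 in library 2 (1.47 to 1.498). Mir126a was higher in both libraries, and these intervals do not overlap either.

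A list of 34 other miRNA genes known from endothelial cells or vessel growth was set beside the 5 genes. All 34 were matched and had a read in at least 1 library, and 23 had a mean of 100 CPM or more. The list took 14.85% of assigned reads in library 1 and 13.2% in library 2. Mir23b was the only gene of the list with a higher mean than Mir126a or Mir139, and 10 exceeded Mir221. List genes with several loci, such as Mir24-1 and Mir24-2, can be undercounted here, because reads mapping to several places were given to no gene. The 5 highest were Mir23b, Mir23a (51422 and 32990 CPM) and Mir27b (4058 and 6441 CPM), which belong to clusters known to act in endothelial sprouting, with Mir100 (5639 and 5986 CPM) and Mir322 (5935 and 4777 CPM).

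Between the libraries 4 of 30 tested genes of the list were called, 3 higher in library 1 and 1 higher in library 2, or 13.3% where 17.2% of all tested genes were called. The median log2 ratio of the list was 0.06, against 0.19 over all tested genes. Mir296 (79 and 31 reads, log2 ratio 1.23), Mir181b-1 (33 and 13 reads, 1.21) and Mir218-2 (33 and 14 reads, 1.11) were higher in library 1, all at low counts. Mir31 (609 and 1606 reads, -1.5) was higher in library 2. Mir155, at 3689 and 2993 CPM, is also known from leukocytes.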

How the data were processed

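Raw read counts per miRNA gene were deposited by the authors as whole numbers, not normalized, in 3 columns (sense, antisense, and the strands combined). Per the text deposited beside the tables, assembly mm10 and annotation M21 were used; aligner and counter: not given in the sources used here. Strands were read from the values. The 4 rows that name no gene were left out of totals. All 2202 identifiers matched M21. CPM were computed from sense counts, library ratios with 0.5 added to each count, and intervals by the Clopper-Pearson method (scipy 1.17.1). Since 1 group of 2 libraries leaves no residual degrees of freedom, the libraries were compared by an exact conditional binomial test. It was tested on simulated counts with counting error alone, which do not cover a spread between animals. Other scalings came from edgeR 4.0.16 and DESeq2 1.42.0. Both libraries carry 1 donor record, so SDs measure the spread of these samples. Named genes are the 5 genes, their neighbours in level and in library ratio, genes sharing a seed, called genes and the 5 highest of the angiogenic list, and cell type markers. The genes and lists were chosen with earlier results of these data known.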

Additional observations from a re-analysis of the deposited data

Results flagged for a closer look

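Counts outside the sense column were large. The antisense column of Mir126b held 97804 reads in library 1 and 118847 in library 2, where a count of 0 would allow 3. These equal the reads that Mir126a had in the sense column but not in the both-strands column, so they are no further signal. The column for both strands listed 432966 and 450849 reads as ambiguous, of which these reads of Mir126a made up 22.6% and 26.4%. In addition, 2273922 and 2098983 reads mapped to several places. A group of 2 libraries was too small for a search for outlying samples, and there was no second group.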

How the results depend on the processing

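Of 32 recomputed log2 library ratios of Mir126a, Mir139, Mir221 and Mir222, 28 kept their direction and their call, which needs an adjusted p under 0.05 and a ratio of 2-fold or more. The 4 that turned were those of Mir139 (-0.0799 with TMM and -0.0771 with DESeq2 size factors) and Mir221 (-0.0116 with TMM and -0.0088 with DESeq2 size factors), because both scalings subtract 0.19 from every log2 ratio. Mir222 stayed called, between 1.30 and 1.496, and Mir126a stayed uncalled, between -0.72 and -0.38. With both strands together its 12 and 18 reads gave an adjusted p of 0.31, against 0 as returned in the reported ratio and under the other 7 alternatives, and the adjusted p of Mir221 was 0.83 with TMM and 0.87 with DESeq2 size factors, against 0.0015 or lower under its other settings. The count of called genes was 105 at 1.5-fold (70 higher in library 1 and 35 in library 2) and 33 with 100 or more counts (17 higher in library 1), as fewer genes were then tested.

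Levels in CPM change with the denominator by construction. As CPM of all reads, Mir126a was at 21073, Mir139 at 16648 and Mir221 at 700.3. Without the most abundant gene in the total, Mir139 was at 52144 and Mir221 at 2194. With both strands together, Mir126a was at 10.2 CPM, since nearly all of its reads were then listed as ambiguous, while Mir139, at 57972, and Mir221, at 2439 CPM, kept their reads over a smaller total. Leaving out a replicate left 1 library and no ratio between libraries. The share of neighbouring pairs that differed more, 16.05% as reported, lay between 11.4% and 18.1% under the alternatives. The ratio of Mir222 to Mir221 and the Mir126b share moved by less than their SD when a replicate was left out. With 2 libraries this holds by construction and says nothing of stability. With both strands together, the counts of Mir221 and Mir222 did not change, and Mir126b held 0% beside the few reads left to Mir126a. The ratio of Mir126a to Mir139 was added after seeing the data, as was the list of other endothelial and angiogenic genes under the other scalings, where 5 were called with each. No paired analysis was possible because there is 1 group. Depth limits Mir126b, whose 3 reads set no difference.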
